A study of Mus musculus with 12 samples.

Results

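Aminoacyl-tRNA synthetases are the enzymes that attach each amino acid to its tRNA. The 36 synthetase genes described here comprise 20 that encode cytosolic enzymes and 16 that encode mitochondrial enzymes, the latter with symbols ending in 2. They were chosen by gene symbol, with or without a final 1, and each gene was read from 1 probe set, the one with the highest mean over the 12 arrays. Of the 36 genes, 35 had a probe set named for them alone, from 72 such probe sets in all, and all 35 passed the filter on low signals and were among the 12190 genes tested. Dars, the aspartate enzyme, is not analysed here, so the results cover 19 cytosolic and 16 mitochondrial genes.

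The arrays were hybridised with RNA from splenic follicular B cells of 8-week-old male 129SvEv mice, sorted as B220+ AA4.1- CD23hi CD21int and cultured with 10 µg/mL of an antibody to IgM, which cross-links the B cell receptor, for 0, 2 or 12 h. Cells labelled wild type (wt) or cko for Zfx, an X-linked zinc-finger transcription factor, were measured at each time, which gave 6 groups of 2 arrays. Every group therefore carried the same strain, sex, age, sort and antibody, and the groups differed in the Zfx label and the time in culture. What drives the deletion in the cko cells, and how many mice gave each RNA, the labels do not say. The labels describe the arrays as duplicates and do not say that they came from separate mice, so that p-values measure the spread between duplicate arrays, which may be technical.

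In the cytosol, each synthetase is dedicated to 1 amino acid, except that the Eprs product charges both glutamate and proline tRNAs. Eprs, Iars, Lars, Mars1, Qars, Rars, Kars and Dars products sit in the multisynthetase complex, held together by the scaffold proteins encoded by Aimp1, Aimp2 and Eef1e1. Mitochondria charge their own tRNAs, mostly with separate enzymes encoded in the nucleus, while the Gars and Kars genes supply the enzyme for both compartments. Several cytosolic synthetase genes are textbook targets of the transcription factor ATF4, which acts in the response to amino acid shortage, and B cells that receive an antigen-receptor signal enlarge and raise protein synthesis before they divide.

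The arrays fell into 2 sets by their control probes. The wt 0 h, wt 12 h and cko 0 h arrays had actin 5′ to 3′ signal ratios of 1.80% to 3.33%, and the wt 2 h, cko 2 h and cko 12 h arrays had ratios of 8.41% to 19.1%. The comparisons of wt 12 h with wt 0 h, of cko with wt at 0 h and at 2 h, and of cko 12 h with cko 2 h lie within 1 set, and the other time and genotype comparisons cross between the sets. The targeted gene was not low on the arrays labelled cko: the brightest Zfx probe set read 983 and 1041 on the wt 0 h arrays and 2189 and 2618 on the cko 0 h arrays. The labels do not place that probe set relative to the deletion, so it does not check the label, and cko stands below for the arrays so labelled. Summed over the 6 of 8 B cell markers with a named probe set, signal was 69063 to 69695 on the wt 0 h arrays and 78717 to 78942 on the cko 0 h arrays, against 971 to 991 and 1002 to 1100 for 6 of 7 T and NK cell markers. Scaling each array to its median moved the median log2 difference of all genes tested by more than 0.1 in several comparisons, and counts under that scaling are given beside some of the main ones. In these bulk samples a change in RNA per cell and a change in the share of cells of a type cannot be told apart.

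After 2 h of anti-IgM, wild-type cells had more signal for most cytosolic synthetases. The share of mitochondrial ones called lower was near that of all genes. Of 19 cytosolic genes 14 rose and 5 fell, with a median log2 difference of 0.51. Among the 16 mitochondrial genes, 2 rose, 7 fell and 7 did not pass the test, with a median of -0.41. Calls were made with limma at a Benjamini-Hochberg adjusted p below 0.05 over all 12190 genes, of which 59.7% were called, 23.5% as higher and 36.2% as lower, with a median of -0.24. With median scaling, 14 cytosolic genes rose and 4 fell, and 4 mitochondrial genes rose and 6 fell.

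Differences are given on the log2 scale of signal plus 16 with the standard error of the fit. The largest cytosolic rises belonged to the arginine, threonine, cysteine and glutamate-proline enzymes. Rars, the arginine enzyme, read 261 and 301 at 0 h, 2287 and 2428 at 2 h and 559 and 515 at 12 h on the wild-type arrays, and 235 and 345, 2737 and 2820, and 2105 and 1978 on the cko arrays. The 2 h arrays of both genotypes lay far above all 0 h arrays, and the log2 difference in wild type was 3.0 ± 0.13 (limma, adjusted p = 1.8e-10). Tars, the threonine enzyme, gave 500 and 531 at 0 h, 3437 and 3531 at 2 h and 784 and 764 at 12 h in wild type, and 517 and 539, 5579 and 5876, and 3098 and 3273 in cko. It rose by 2.72 ± 0.07 in wild type, and no 2 h array overlapped a 0 h array. Cars, the cysteine enzyme, had signals of 19.9 and 28.6, 135 and 159, and 20.4 and 33.8 at 0, 2 and 12 h in wild type and of 70.4 and 87.2, 341 and 358, and 129 and 133 in cko. It started near the lower end of the signals tested and rose by 2.02 ± 0.22 at 2 h. Eprs, the glutamate-proline enzyme, read 874 and 824 at 0 h, 2655 and 2656 at 2 h and 1677 and 1732 at 12 h on the wild-type arrays, and 977 and 907, 3488 and 3420, and 3952 and 3717 on the cko arrays. Its 2 h arrays agreed closely and were 1.63 ± 0.07 above 0 h.

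Among the other cytosolic rises, the differences ranged from 0.19 for Mars1 to 1.21 for Yars, the tyrosine enzyme. The lysine enzyme gene Kars and the isoleucine enzyme gene Iars rose by 0.99 ± 0.08 and 0.86 ± 0.09. Glycine (Gars), alanine (Aars) and asparagine (Nars) enzyme genes rose by 0.64 ± 0.06, 0.60 ± 0.09 and 0.51 ± 0.06. The smallest calls were sensitive to single arrays: without 1 wt array at a time, Mars1 gave 0.15 to 0.24 and Wars, the tryptophan enzyme gene, 0.16 to 0.38, and each missed the threshold in at least 1 of these fits.

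The cytosolic falls were led by the valine and glutamine enzymes. Vars, the valine enzyme, gave 2187 and 2320 at 0 h, 353 and 400 at 2 h and 1332 and 1283 at 12 h in wild type, and 1930 and 1786, 374 and 349, and 650 and 589 in cko. Every 2 h array was below every 0 h array, with a difference of -2.53 ± 0.09 in wild type (limma, adjusted p = 1.9e-11). Qars, the glutamine enzyme, had signals of 1896 and 1867, 776 and 790, and 1939 and 1844 at 0, 2 and 12 h in wild type and of 1589 and 1714, 581 and 580, and 949 and 1121 in cko. It was lower at 2 h by a log2 difference of -1.25 ± 0.08. Serine (Sars), phenylalanine beta-subunit (Farsb) and leucine (Lars) enzyme genes had smaller differences of -0.57 ± 0.07, -0.49 ± 0.06 and -0.36 ± 0.07.

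Of the mitochondrial enzymes, the threonine, cysteine and valine genes had the largest falls at 2 h. Tars2, the threonine enzyme, read 1337 and 1034 at 0 h, 434 and 452 at 2 h and 1315 and 1187 at 12 h on the wild-type arrays, and 1278 and 1143, 447 and 389, and 886 and 834 on the cko arrays. Its difference in wild type was -1.38 ± 0.12 (limma, adjusted p = 1.6e-07), opposite in direction to that of Tars. Cars2, the cysteine enzyme, gave 490 and 347 at 0 h, 130 and 171 at 2 h and 311 and 386 at 12 h in wild type, and 278 and 274, 103 and 143, and 207 and 226 in cko. It differed by -1.38 ± 0.19, again opposite to Cars. Vars2, the valine enzyme, had signals of 127 and 89.7, 53.9 and 18.6, and 125 and 209 at 0, 2 and 12 h in wild type and of 217 and 90.7, 60.2 and 17.7, and 34.5 and 28.4 in cko. Its duplicates were far apart, and the difference of -1.32 ± 0.45 became -0.82 (adjusted p = 0.21, limma) without the second wt 2 h array and -1.10 (adjusted p = 0.12, limma) without the first wt 0 h array.

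Leucine, proline and arginine mitochondrial enzyme genes also fell at 2 h, with differences of -1.15 ± 0.17 for Lars2, -0.96 ± 0.15 for Pars2 and -0.62 ± 0.08 for Rars2. Iars2, the isoleucine enzyme gene, had a difference of -0.71 ± 0.21, which missed the threshold without the first wt 2 h array (-0.64, adjusted p = 0.057, limma). The mitochondrial rises were Nars2, the asparagine enzyme, and Hars2, the histidine enzyme. Nars2 read 297 and 345 at 0 h, 512 and 543 at 2 h and 664 and 561 at 12 h on the wild-type arrays, and 417 and 366, 807 and 702, and 823 and 549 on the cko arrays. Its difference was 0.69 ± 0.16. Hars2 gave 212 and 204 at 0 h, 271 and 294 at 2 h and 149 and 198 at 12 h in wild type, and 140 and 155, 256 and 302, and 225 and 232 in cko. Its difference of 0.41 ± 0.16 was no longer called when any 1 of the 4 wt 0 h and 2 h arrays was left out, with values of 0.36 to 0.47.

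**Figure D1:**
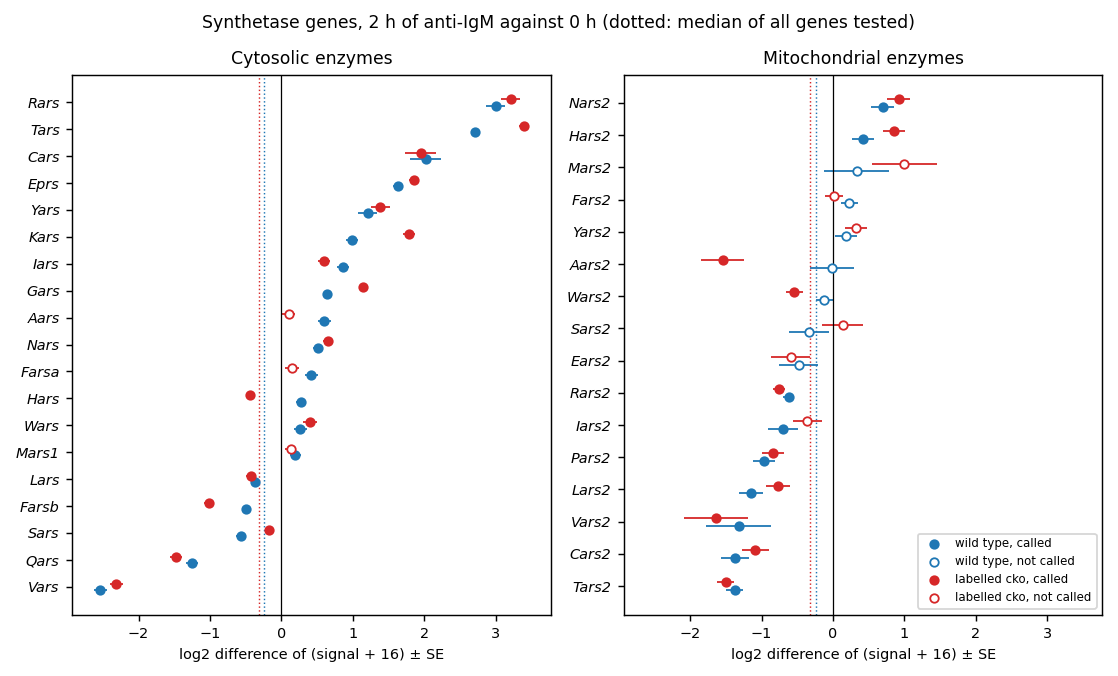
Log2 difference of signal plus 16 between 2 h and 0 h of anti-IgM for 19 cytosolic (left) and 16 mitochondrial (right) synthetase genes in wild-type (blue) and cko-labelled (red) cells, with bars for the standard error, filled points for genes called and dotted lines for the median of all genes tested. Rars and Tars stand at the top of the left panel with values of 3.0 and 2.72 in wild type and Vars at the bottom with -2.53, while 7 mitochondrial genes are called lower in wild type.

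On the arrays labelled cko, the 2 h comparison gave 10 cytosolic genes higher, 6 lower and 3 not called (median 0.40), against 23.8% of all genes higher and 39.2% lower, 63% in all. Mitochondrial genes gave 2 higher, 8 lower and 6 not called (median -0.57), where the median of all genes was -0.32. With median scaling the cytosolic split became 14 higher and 3 lower and the mitochondrial split 5 higher and 6 lower. Tars rose by 3.40 ± 0.07, Rars by 3.21 ± 0.13, Cars by 1.95 ± 0.22, Eprs by 1.86 ± 0.07 and Kars by 1.78 ± 0.08. Vars and Qars differed by -2.31 ± 0.09 and -1.48 ± 0.08.

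Higher calls in both genotypes at 2 h were made for 10 cytosolic genes, which are 10 of the 14 called in wild type and 10 of the 10 called in cko: Cars, Eprs, Gars, Iars, Kars, Nars, Rars, Tars, Wars and Yars. The corresponding count was 2 of 16 mitochondrial genes (Hars2 and Nars2) and 19.3% of all genes. Lower calls in both were made for Farsb, Lars, Qars, Sars and Vars and for 6 mitochondrial genes (Cars2, Lars2, Pars2, Rars2, Tars2 and Vars2), where 29.9% of all genes were lower in both. Sars in cko was a small difference of -0.17 ± 0.07, which missed the threshold without some single arrays (-0.23 to -0.10) and was 0.25 with median scaling. Hars, the cytosolic histidine enzyme gene, was called in opposite directions, with 0.27 ± 0.06 in wild type and -0.44 ± 0.06 in cko. Aars2, the mitochondrial alanine enzyme gene, had signals of 35.4 and 81.9, 74.8 and 38.2, and 174 and 218 at 0, 2 and 12 h in wild type and of 178 and 217, 57.4 and 56.5, and 93.2 and 98.7 in cko. It was not called in wild type (-0.01 ± 0.30) and fell by 1.54 ± 0.30 in cko.

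Both 2 h comparisons cross between the control-probe sets, and their signals moved with that division. In a fit with genotype, time and control-probe set as additive terms, in which both genotypes share 1 value at 2 h, 12 cytosolic genes were called (10 higher and 2 lower) and 6 mitochondrial ones (1 higher and 5 lower). The values in that fit were 1.34 for Rars, 1.41 for Tars, 1.40 for Cars, 0.84 for Eprs and -1.53 for Vars, all still called and all nearer to 0 than above. Farsb, Lars and Vars2, lower at 2 h in both genotypes, had values of 0.12, 0.21 and 0.63 in that fit and were not called. Signals on all 6 arrays with higher 5′ to 3′ ratios lay above those on the other 6 arrays for 7 of 19 cytosolic genes (Cars, Eprs, Gars, Kars, Rars, Tars and Yars), 1 of 16 mitochondrial genes (Hars2) and 9.52% of all genes. They lay below for Farsb, Qars, Vars, Cars2, Tars2 and Vars2, and for 15.3% of all genes. The additive fit sets its control-probe term by how far the genotype difference at 12 h departs from that at the earlier times. A genotype difference in the 12 h response therefore enters the 2 h values of that fit. The part of this division in the 2 h results was not tested. Summed signal of B cell, T and NK cell and myeloid markers in wild type was also lower at 2 h than at 0 h. Plasma cell markers went the other way, with 9761 to 10323 at 2 h against 8233 to 8405 at 0 h. For B cell markers the sum was 27291 to 29093 at 2 h, against 69063 to 69695 at 0 h. Of 6 B cell markers tested 4 fell and 2 were not called. T and NK cell markers gave 385 to 400 against 971 to 991, and myeloid markers 11013 to 11153 against 17737 to 18314. Of 5 myeloid markers tested 4 fell and 1, Cd14, rose. The part of these in the 2 h result was not tested.

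Promoter sequence was examined because the 2 h rises included several cytosolic synthetase genes known as ATF4 targets. Windows from 250 bases before to 50 after the annotated start (RefSeq, GRCm38.p6) were found for 13 of 20 cytosolic and 14 of 16 mitochondrial genes. The core TGATGNAA of the element bound by ATF4 and its C/EBP partners, searched on both strands, was present for 5 of the 13 cytosolic genes (Aars, Gars, Iars, Tars and Yars) and 0 of the 14 mitochondrial genes, against 3.97% of 32851 promoters of the same length. Stretches around the matches, read 5′ to 3′ on the strand of the gene and with the match or its reverse complement in capitals, are shown for these genes.
Aars, chr8:111033690-111033777, plus strand: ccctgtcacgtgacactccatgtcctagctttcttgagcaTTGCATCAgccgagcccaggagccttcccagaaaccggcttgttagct
Aars, chr8:111033842-111033869, plus strand: cgggtcactTTTCATCAgagcgctctga
Gars, chr6:55037931-55038000, plus strand: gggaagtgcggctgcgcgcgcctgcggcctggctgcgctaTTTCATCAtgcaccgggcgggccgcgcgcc
Iars, chr13:49682130-49682155, plus strand: gtcagtaTTGCATCAcctccagacgc
Tars, chr15:11399659-11399713, minus strand: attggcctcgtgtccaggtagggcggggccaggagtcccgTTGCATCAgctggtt
Yars, chr4:129189903-129189924, plus strand: agcTGATGCAAcccgacgggac

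All 5 genes with this core were called higher at 2 h in wild type, as were 9 of the other 14 cytosolic genes. Those 14 include Cars, Hars, Lars, Nars, Rars, Vars and Wars, which had no window and could not be searched. Among measured genes searched and without the core, Eprs, Farsa, Kars and Mars1 were called higher and Farsb, Qars and Sars lower. In cko at 2 h, Gars, Iars, Tars and Yars were called higher and Aars was not called (0.11). The hexamer CACGTG, the E-box letters read by the growth regulator Myc and its partner Max, was present for Aars, Farsb, Iars and Tars and for Ears2, against 7.15% of promoters, and did not overlap the ATF4 core in any of them. GCGCATGC, the core bound by NRF1, a regulator of nuclear genes for mitochondrial proteins, was present for Rars2, Vars2 and Wars2 and for 2.71% of promoters. AGGCCT, the core read by Zfx, was present for Farsb, Sars, Yars, Lars2 and Yars2 and for 10.26% of promoters. These matches describe letters in the windows and are not measurements of binding.

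At 12 h, wild-type cells had more signal than at 0 h for most cytosolic synthetases, and both groups of this comparison lay within the set of arrays with lower control ratios. Of 19 cytosolic genes 15 rose, 1 fell and 3 did not pass the test (median 0.56), while 5 of 16 mitochondrial genes rose, 1 fell and 10 did not pass (median 0.13). All genes gave 47.9% called, 24.8% higher and 23.1% lower, with a median of 0.03. Aars led the cytosolic genes and read 488 and 514 at 0 h, 790 and 745 at 2 h and 1207 and 1167 at 12 h on the wild-type arrays, and 964 and 950, 1019 and 1042, and 1325 and 1603 on the cko arrays. Its 12 h arrays in wild type lay above the 2 h and 0 h arrays, with 1.22 ± 0.09 against 0 h (limma, adjusted p = 6.7e-08). Mars1, the methionine enzyme, gave 966 and 964 at 0 h, 1073 and 1139 at 2 h and 2036 and 2040 at 12 h in wild type, and 1658 and 1592, 1711 and 1856, and 2518 and 2859 in cko. It rose by 1.07 ± 0.08, with most of the rise after 2 h.

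Eprs and Rars rose by 0.99 ± 0.07 and 0.90 ± 0.13, less than at 2 h, and Tars by 0.57 ± 0.07. Hars, Nars and Iars rose by 0.89 ± 0.06, 0.74 ± 0.06 and 0.72 ± 0.09. Vars was the cytosolic fall, at -0.78 ± 0.09. Cars, Qars and Farsa were not called, with values of 0.09 ± 0.22, 0.01 ± 0.08 and 0.24 ± 0.10. The calls for Sars (0.20) and Yars (0.44) missed the threshold without some single arrays, with ranges of 0.19 to 0.22 and 0.31 to 0.58, and Farsa passed it at 0.32 without the second wt 0 h array.

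Mitochondrial rises at 12 h in wild type were those of the alanine, asparagine, phenylalanine, tryptophan and arginine enzymes. Aars2 rose by 1.57 ± 0.30, Nars2 by 0.90 ± 0.16, Wars2 by 0.69 ± 0.11 and Rars2 by 0.32 ± 0.08. Fars2, the phenylalanine enzyme, had signals of 250 and 228, 297 and 270, and 454 and 418 at 0, 2 and 12 h in wild type and of 270 and 225, 264 and 234, and 696 and 714 in cko. It rose by 0.83 ± 0.13 in wild type, with no overlap between 0 h and 12 h arrays. Yars2, the tyrosine enzyme gene, was the mitochondrial fall at -0.47 ± 0.16, a call that was lost without some single arrays (-0.62 to -0.32). Tars2 and Cars2, low at 2 h, had values of 0.09 and -0.24 at 12 h against 0 h and were not called.

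**Figure D2:**
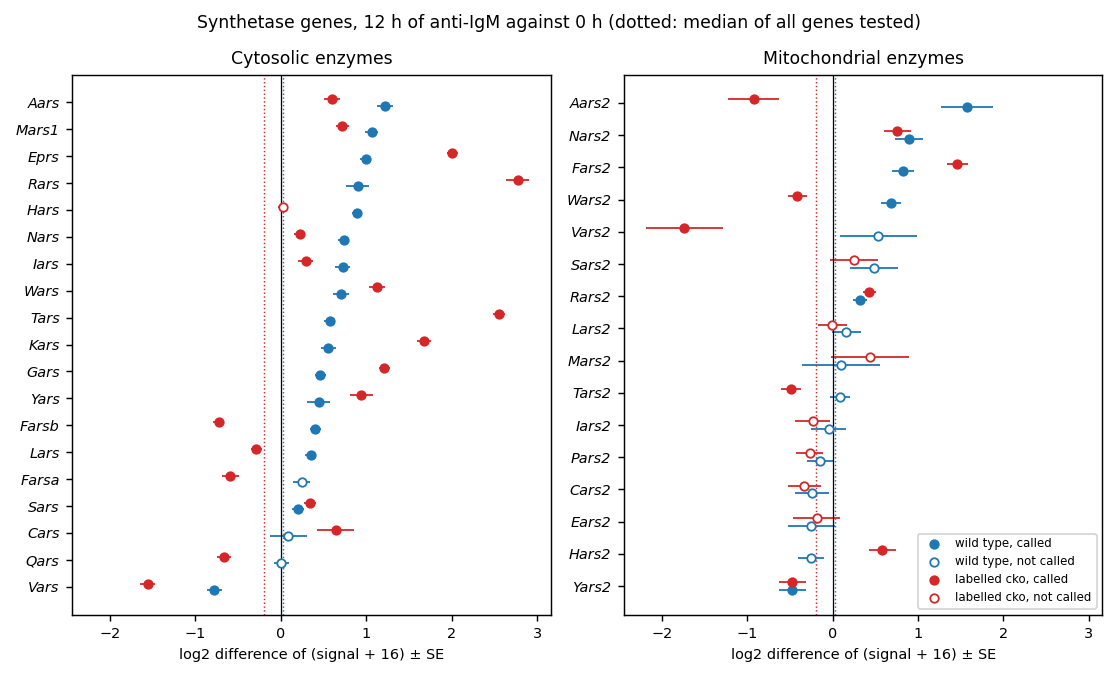
Log2 difference of signal plus 16 between 12 h and 0 h of anti-IgM for 19 cytosolic (left) and 16 mitochondrial (right) synthetase genes in wild-type (blue) and cko-labelled (red) cells, drawn with standard error bars, filled points for genes called and dotted lines for the median of all genes tested. In wild type 15 cytosolic genes are called higher and Aars leads with 1.22, while in cko Rars and Tars lead with 2.77 and 2.56.

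On the arrays labelled cko, 13 cytosolic genes were higher at 12 h than at 0 h, 5 were lower and 1 was not called (median 0.60), and 4 mitochondrial genes were higher, 5 lower and 7 not called (median -0.21). Among all genes 58.9% were called, 25.9% higher and 33.1% lower, with a median of -0.20. With median scaling the cytosolic counts were 14 and 3 and the mitochondrial counts 4 and 1. Rars rose by 2.77 ± 0.13, Tars by 2.56 ± 0.07, Eprs by 2.01 ± 0.07 and Kars by 1.68 ± 0.08. Kars read 806 and 768 at 0 h, 1612 and 1540 at 2 h and 1158 and 1170 at 12 h on the wild-type arrays, and 649 and 587, 1998 and 2342, and 1976 and 2042 on the cko arrays. At 12 h both of its cko arrays lay above both wild-type arrays. Wars and Fars2 also rose, by 1.13 ± 0.09 and 1.46 ± 0.13.

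The falls at 12 h in cko were those of Vars (-1.56 ± 0.09), Farsb (-0.73 ± 0.06), Qars (-0.67 ± 0.08), Farsa (-0.59 ± 0.10) and Lars (-0.29 ± 0.07), the last of which was 0.13 with median scaling. Vars2 and Aars2 fell by 1.74 ± 0.45 and 0.92 ± 0.30, and both calls were lost without some single arrays, with ranges of -2.30 to -1.17 and -1.06 to -0.79. Among the smaller rises, those of Cars (0.64), Iars (0.29) and Nars (0.22) were lost in the same way, with ranges of 0.51 to 0.77, 0.26 to 0.32 and 0.16 to 0.28. The mitochondrial falls of Wars2 (-0.41) and Yars2 (-0.47) were lost as well, with ranges of -0.49 to -0.33 and -0.60 to -0.34. This comparison crosses between the control-probe sets, and in the additive fit the values of Farsa, Farsb, Lars, Aars2, Tars2, Vars2 and Wars2 were above 0 and that of Hars2 below it.

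Between 2 h and 12 h the cytosolic enzymes of wild-type cells moved both ways, 10 higher, 7 lower and 2 not called, and the mitochondrial enzymes moved mostly up, 11 higher, 2 lower and 3 not called (median 0.81). The background was 57.3% called, 35.3% higher and 22% lower, with a median of 0.26. Median scaling gave 8 higher and 9 lower for the cytosolic genes and 8 and 2 for the mitochondrial ones. With the probe sets of each gene averaged, 6 cytosolic genes were higher and 12 lower, with a median of -0.29 against 0.23, and the 21 further cytosolic probe sets gave 3 higher and 10 lower. Tars, Rars and Cars fell by 2.15 ± 0.07, 2.10 ± 0.13 and 1.93 ± 0.22 and Yars by 0.77 ± 0.14. Vars, Qars, Farsb and Mars1 rose by 1.76 ± 0.09, 1.26 ± 0.08, 0.90 ± 0.06 and 0.87 ± 0.08. The mitochondrial rises were led by Vars2 (1.86 ± 0.45), Aars2 (1.59 ± 0.30), Tars2 (1.46 ± 0.12) and Lars2 (1.31 ± 0.17). The 2 h arrays are shared with the comparison of 2 h with 0 h, and the 2 groups differ in control-probe set. In the additive fit Tars, Rars and Cars had values of -0.67, -0.39 and -1.33, and Vars2 of -0.18, not called.

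On the arrays labelled cko, where 2 h and 12 h lie in the same control-probe set, 8 cytosolic genes were higher at 12 h than at 2 h, 7 were lower and 4 were not called, and 6 mitochondrial genes were higher, 1 lower and 9 not called, against 49% of all genes called, 30.2% higher and 18.7% lower. Averaging each gene's probe sets gave 6 cytosolic genes higher and 9 lower, and moved their median from 0.14 to -0.11. Control ratios moved with this comparison inside the set: the actin ratio was 10.6% to 10.8% at 2 h and 19.0% to 19.1% at 12 h. The GAPDH ratio was 8.02% to 8.75% and 12.6% to 13.0%, and the part of these in the result was not tested. Cars, Tars and Farsa fell by 1.31 ± 0.22, 0.84 ± 0.07 and 0.74 ± 0.10. Rars fell by 0.44 ± 0.13, a call lost without the second cko 2 h or the second cko 12 h array (-0.42 and -0.40). Qars, Vars, Wars and Mars1 rose by 0.81 ± 0.08, 0.75 ± 0.09, 0.73 ± 0.09 and 0.59 ± 0.08. Fars2, Rars2, Tars2 and Lars2 rose by 1.45 ± 0.13, 1.19 ± 0.08, 1.02 ± 0.12 and 0.77 ± 0.17, and Yars2 fell by 0.79 ± 0.16.

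**Figure D3:**
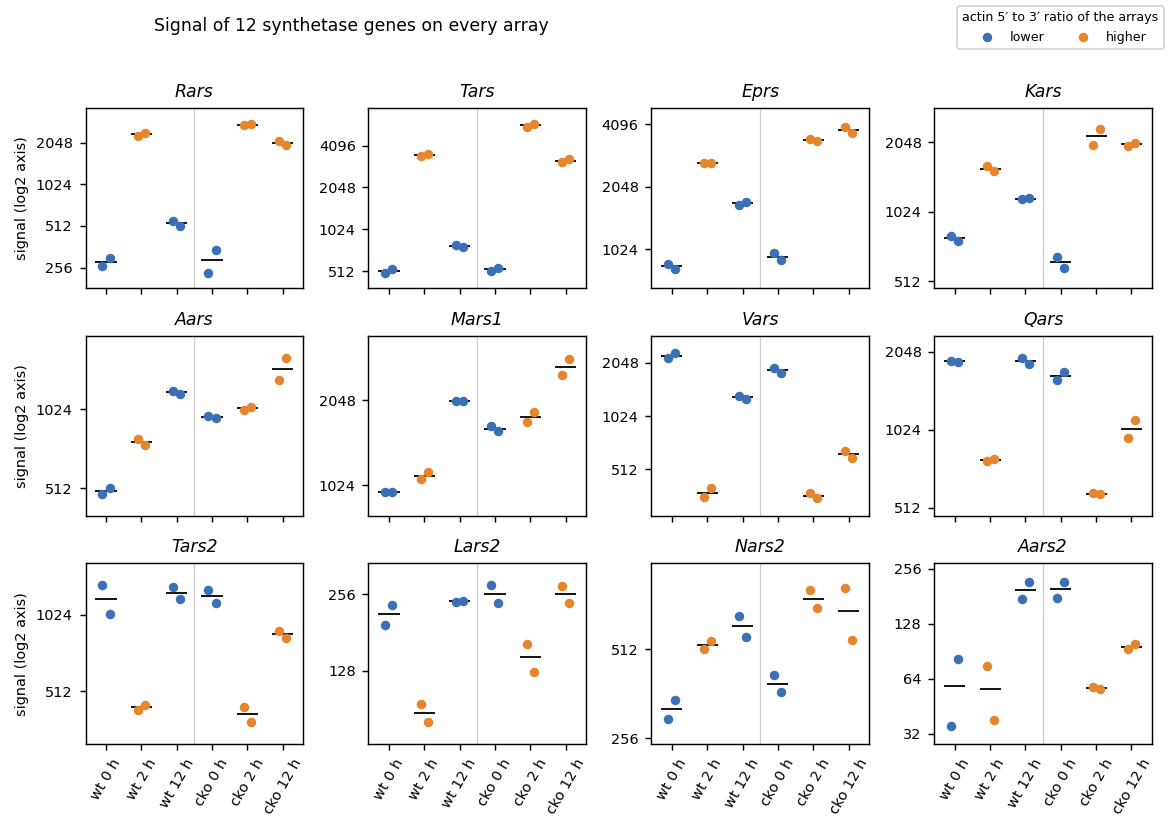
Signal on each of the 12 arrays, on a log2 axis, for 12 synthetase genes in the 6 groups, with a line at the mean of each pair of arrays, orange for the arrays with higher actin 5′ to 3′ ratios and blue for the others. Rars, Tars, Eprs and Kars are higher and Vars and Qars lower on all orange points than on all blue ones, whereas Aars and Mars1 are ordered by time within each genotype.

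Without stimulation, at 0 h, the brightest probe sets of more cytosolic enzymes were called higher than lower on the arrays labelled cko. Of 19 cytosolic genes 10 were higher in cko than in wt, 2 were lower and 7 were not called (median 0.27), and of 16 mitochondrial genes 2 were higher, 2 lower and 12 not called (median 0.04). All genes gave 32.3% called, 16.3% higher and 16% lower, with a median of 0.02, and median scaling gave 6 cytosolic genes higher and 4 lower. The 21 further probe sets of the cytosolic genes gave 1 higher and 4 lower, and with the probe sets of each gene averaged 7 cytosolic genes were higher and 2 lower, with a median of 0.080. Cars was 1.24 ± 0.22 higher (limma, adjusted p = 0.00077), Aars 0.91 ± 0.09, Mars1 0.74 ± 0.08 and Lars 0.61 ± 0.07. Lars, the leucine enzyme, gave 1924 and 1871 at 0 h, 1424 and 1517 at 2 h and 2400 and 2442 at 12 h in wild type, and 2940 and 2881, 2041 and 2292, and 2379 and 2383 in cko. Both 0 h groups lie in the same control-probe set, and the cko arrays of these 4 genes did not overlap the wt arrays. Within that set the actin 5′ to 3′ ratio was 3.27% to 3.33% on the wt arrays and 1.80% to 1.99% on the cko arrays. The GAPDH ratio was 2.42% to 2.62% and 1.54% to 1.58%, and the part of these in the result was not tested.

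Kars was lower in cko at 0 h by 0.34 ± 0.08 and Vars by 0.28 ± 0.09, and both calls were lost without some single arrays, with ranges of -0.41 to -0.27 and -0.33 to -0.22. The same held for the higher calls of Farsa (0.29) and Yars (0.41), with ranges of 0.21 to 0.37 and 0.28 to 0.55. Aars2 was higher by 1.58 ± 0.30 and Wars2, the mitochondrial tryptophan enzyme gene, by 0.59 ± 0.11. The lower calls of Cars2 (-0.55) and Hars2 (-0.46) were lost without some single arrays, with ranges of -0.79 to -0.31 and -0.52 to -0.39.

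At 2 h, 11 cytosolic genes were higher in cko than in wt, 2 were lower and 6 were not called (median 0.38), and 2 mitochondrial genes were higher, 0 lower and 14 not called (median 0.08). The shares over all genes were 28.5% called, 12.8% higher and 15.7% lower, with a median of -0.02. Cars was higher by 1.17 ± 0.22, Tars by 0.71 ± 0.07, Mars1 by 0.68 ± 0.08 and Yars by 0.59 ± 0.14. The Yars call was lost without the first wt 2 h array (0.40). Hars and Qars were lower by 0.43 ± 0.06 and 0.42 ± 0.08. Both mitochondrial calls, Lars2 (0.63) and Nars2 (0.50), were lost without some single arrays, with ranges of 0.47 to 0.79 and 0.40 to 0.60.

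Aars, Cars, Lars, Mars1, Nars and Yars were higher in cko at both 0 h and 2 h, comparisons that share no array and that each lie within 1 control-probe set. These are 6 of the 10 cytosolic genes called higher at 0 h and 6 of the 11 at 2 h, and the count was 0 of 16 for mitochondrial genes and 4.66% for all genes. Summed over 6 of 6 myeloid markers, signal was 17737 to 18314 on the wt 0 h arrays and 7848 to 8000 on the cko 0 h arrays, and 11013 to 11153 and 1849 to 2030 at 2 h. Most of it was S100a8 and S100a9, with means of 11983 and 4034 in wt and 4594 and 973 in cko at 0 h. Csf1r went the other way at 0 h, 829 in wt and 1591 in cko. Of 5 myeloid markers tested, 3 were lower and 1 higher in cko at 0 h, and 5 lower at 2 h. Erythroid markers, 2 of 4 measured, summed to 293 to 296 and 116 to 133 at 0 h, nearly all of it Alas2, since Hba-a1 had means of 7.5 and 19.2. The part of these markers in the genotype differences was not tested.

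**Figure D4:**
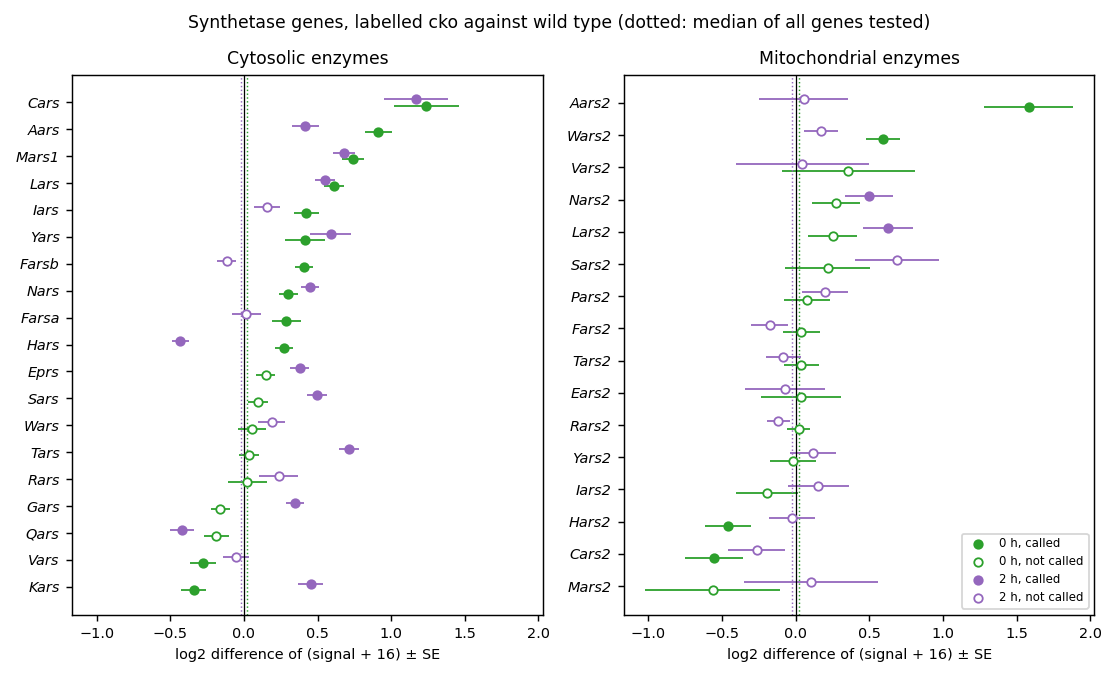
Log2 difference of signal plus 16 between cko-labelled and wild-type arrays at 0 h (green) and 2 h (purple) for 19 cytosolic (left) and 16 mitochondrial (right) synthetase genes, with bars for the standard error, filled points for genes called and dotted lines for the median of all genes tested. Cars, Aars, Mars1 and Lars are called higher at both times in the left panel, and the right panel has 4 filled points at 0 h and 2 at 2 h.

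At 12 h the cytosolic enzymes with the largest higher values in cko were those for threonine, arginine and cysteine, in a comparison that crosses between the control-probe sets. In all, 11 cytosolic genes were higher in cko, 6 lower and 2 not called (median 0.29), and 1 mitochondrial gene was higher, 5 lower and 10 not called (median -0.03), against 51.3% of all genes called, 21.4% higher and 29.9% lower (median -0.17). Median scaling gave 13 higher and 4 lower for the cytosolic genes and 4 higher and 1 lower for the mitochondrial ones. Tars was higher by 2.02 ± 0.07, Rars by 1.90 ± 0.13, Cars by 1.79 ± 0.22 and Eprs by 1.16 ± 0.07. In the additive fit the control-probe term takes up the rest of the 12 h difference, and the genotype value rests on the 0 h and 2 h arrays. That value was 0.37, 0.13, 1.20 and 0.26 for these genes, and Rars was not called (adjusted p = 0.42, limma). It does not bear on the 12 h difference.

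Vars, Qars, Farsb and Hars were lower in cko at 12 h by 1.06 ± 0.09, 0.86 ± 0.08, 0.72 ± 0.06 and 0.59 ± 0.06, and Vars2 by 1.91 ± 0.45. Fars2 was higher by 0.67 ± 0.13. In the additive fit, whose genotype value rests on the 0 h and 2 h arrays, Vars, Farsb, Hars, Vars2 and Fars2 were not called. Their values were -0.17, 0.15, -0.08, 0.20 and -0.07. Calls lost without some single arrays were those of Aars (0.16 to 0.43), Nars (-0.27 to -0.16), Sars (0.18 to 0.29), Aars2 (-1.06 to -0.76) and Cars2 (-0.79 to -0.50).

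The test of the difference in response between genotypes, an interaction term of the same fit, gave 4 cytosolic genes with a greater response in cko and 3 with a lower one at 2 h, and 0 and 1 mitochondrial genes, where 20.4% of all genes were called, 8.59% as greater and 11.8% as lower. Kars and Tars had the greatest positive differences at 2 h, 0.79 ± 0.12 and 0.68 ± 0.10. Hars, by its brightest probe set, had the most negative cytosolic one, -0.71 ± 0.08. At 12 h the counts were 6 and 10 cytosolic and 2 and 4 mitochondrial genes, against 43.2% of all genes called, 18.8% greater and 24.4% lower, and with median scaling they were 9 and 3 and 3 and 3. The 21 further cytosolic probe sets gave 6 greater and 0 lower at 2 h. At 12 h they went the other way from the brightest ones, with 12 greater and 2 lower. Only the 2 h term compares responses that both cross from the lower to the higher control-probe set. The actin ratio at 2 h was 8.41% to 8.51% in wild type and 10.6% to 10.8% in cko. The part of this in the 2 h term was not tested.

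Cytosolic and mitochondrial enzymes for the same amino acid could be set side by side in 15 pairings, with Fars2 paired with both Farsa and Farsb. At 2 h in wild type, cysteine, isoleucine, arginine and threonine had a cytosolic rise with a mitochondrial fall, no pairing had the opposite, histidine and asparagine rose in both, and leucine and valine fell in both. The remaining 7 pairings had at least 1 gene not called. Over all genes 23.5% were called higher and 36.2% lower in this comparison. The Iars2, Hars2 and Vars2 calls in the isoleucine, histidine and valine pairings were lost without some single arrays. In cko at 2 h, 4 pairings had a cytosolic rise with a mitochondrial fall, and 1, histidine, had the opposite. Isoleucine was not among those 4, since Iars2 was not called. The cytosolic value was above the mitochondrial one in 9 of 15 pairings at 2 h and in 9 of 15 at 12 h in wild type. At 12 h, 5 pairings rose in both compartments and 1, tyrosine, rose in the cytosol and fell in the mitochondrion. Both tyrosine calls were lost without some single arrays. Threonine had the widest gap at 2 h in wild type, with 2.72 for Tars against -1.38 for Tars2, and arginine had 3.0 for Rars against -0.62 for Rars2. Rars2 had signals of 1159 and 1282, 830 and 748, and 1557 and 1498 at 0, 2 and 12 h in wild type and of 1256 and 1218, 736 and 714, and 1676 and 1671 in cko. Its 2 h arrays were the lowest of each genotype and its 12 h arrays the highest.

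Enzymes of the multisynthetase complex could be compared with the rest of the cytosolic set by counts. Of 7 measured complex members 5 rose and 2 fell at 2 h in wild type, and 6 rose and 0 fell at 12 h, where 23.5% of all genes rose and 36.2% fell at 2 h and 24.8% and 23.1% did at 12 h. The 12 cytosolic genes outside the complex gave 9 and 3 at 2 h and 9 and 1 at 12 h. Among the scaffold genes, Aimp2 and Eef1e1 rose by 1.94 ± 0.07 and 2.89 ± 0.06 at 2 h and Aimp1 had a value of -0.06 ± 0.07, not called. All 3 were higher at 12 h, by 1.66 ± 0.06 for Eef1e1, 1.5 ± 0.07 for Aimp2 and 0.30 ± 0.07 for Aimp1.

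Genes of the amino acid response were tested beside the synthetases, from a list of 15 that includes Atf4 and its targets. In wild type 11 rose and 2 fell at 2 h, and 7 rose and 4 fell at 12 h, and in cko 12 rose and 2 fell at each time. The shares of all genes that rose and fell were 23.5% and 36.2% at 2 h and 24.8% and 23.1% at 12 h in wild type, and 23.8% and 39.2% and 25.9% and 33.1% in cko. Atf4 itself rose by 1.64 ± 0.06 at 2 h and fell by 0.29 ± 0.06 at 12 h in wild type, and in cko the values were 1.74 ± 0.06 and 1.21 ± 0.06. Asns, asparagine synthetase, rose by 0.61 ± 0.10 and 0.89 ± 0.10 in wild type, and Mthfd2, a mitochondrial folate enzyme, by 3.46 ± 0.09 and 2.11 ± 0.09. Myc rose by 3.55 ± 0.12 at 2 h in wild type and had a value of 0.08 ± 0.12 at 12 h, not called. Both 2 h comparisons and the cko 12 h comparison cross between the control-probe sets. Atf4 read 4329 to 7219 on the arrays with higher control ratios and 1136 to 2184 on the others. Mthfd2 and Myc were also higher on all of those arrays, as were 9.52% of all genes, whereas Asns was not. The part of the control-probe division in these rises was not tested. Between genotypes, 8 of the 15 were higher in cko and 1 lower at 0 h, and 9 were higher and 0 lower at 2 h, against 16.3% and 16% of all genes at 0 h and 12.8% and 15.7% at 2 h. Trib3, a pseudokinase induced by ATF4, was higher in cko by 3.73 ± 0.53 at 0 h and Chac1, a glutathione-degrading enzyme, by 2.42 ± 0.25. Asns was higher by 1.21 ± 0.10 and Atf4 by 0.60 ± 0.06.

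Amino acid transporters supply the substrates of the synthetases. Of 10 tested, 5 were higher and 0 lower at 2 h in wild type, and 3 were higher and 0 lower at 12 h. For these and the next lists, 23.5% of all genes were higher and 36.2% lower at 2 h, and 24.8% and 23.1% at 12 h. Slc7a5 and its partner Slc3a2, which carry large neutral amino acids, rose by 2.84 ± 0.14 and 1.19 ± 0.06, and the cationic transporter gene Slc7a1 by 1.87 ± 0.06. Factors of mitochondrial tRNA charging and translation, 12 of 13 tested, gave 5 higher and 5 lower at 2 h in wild type, the lower share being near that of all genes. Tsfm and Mtfmt, the mitochondrial elongation factor and methionyl-tRNA formyltransferase genes, rose by 1.41 ± 0.17 and 0.87 ± 0.19. Gatb and Qrsl1, subunits of the amidotransferase that completes mitochondrial glutaminyl-tRNA, fell by 1.29 ± 0.24 and 0.78 ± 0.06. Of 9 genes of tRNA end formation and editing, 5 rose and 2 fell at 2 h and 6 rose and 0 fell at 12 h, with 1.53 ± 0.13 at 2 h for Trnt1, which adds the CCA end that synthetases charge.

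For several enzymes the direction depended on the probe set, and 21 of the 35 genes had more than 1 probe set past the filter. The 21 further probe sets of 11 cytosolic genes gave 11 higher and 3 lower calls at 2 h in wild type, and 15 of the 21 had a larger value than the brightest probe set of their gene. The 11 further probe sets of 10 mitochondrial genes gave 1 higher and 4 lower. Farsb, which fell at 2 h by its brightest probe set, had other probe sets at 1.5, -0.26 and -1.32. Farsa, the alpha-subunit gene, had 1.13 and 1.19 against 0.42 for the brightest. Nars gave 2.46 against 0.51 and Hars 1.24 against 0.27. Yars2, not called by its brightest probe set, had 2.00, and a probe set of Qars had -0.24, not called, against -1.25. For Fars2 and Hars2 the other probe set gave -1.28, called lower, and -0.20, not called. The chosen probe sets of Farsb, Qars, Wars and Yars2 carry the suffix x and those of Aars, Iars and Sars the suffix s, by which the manufacturer marks probes that can match related transcripts. The location of these probe sets along the transcripts was not used here, so the values of Farsb, Farsa, Hars, Nars, Qars, Yars2, Fars2 and Hars2 hold for the probe set named by the rule.

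**Figure D5:**
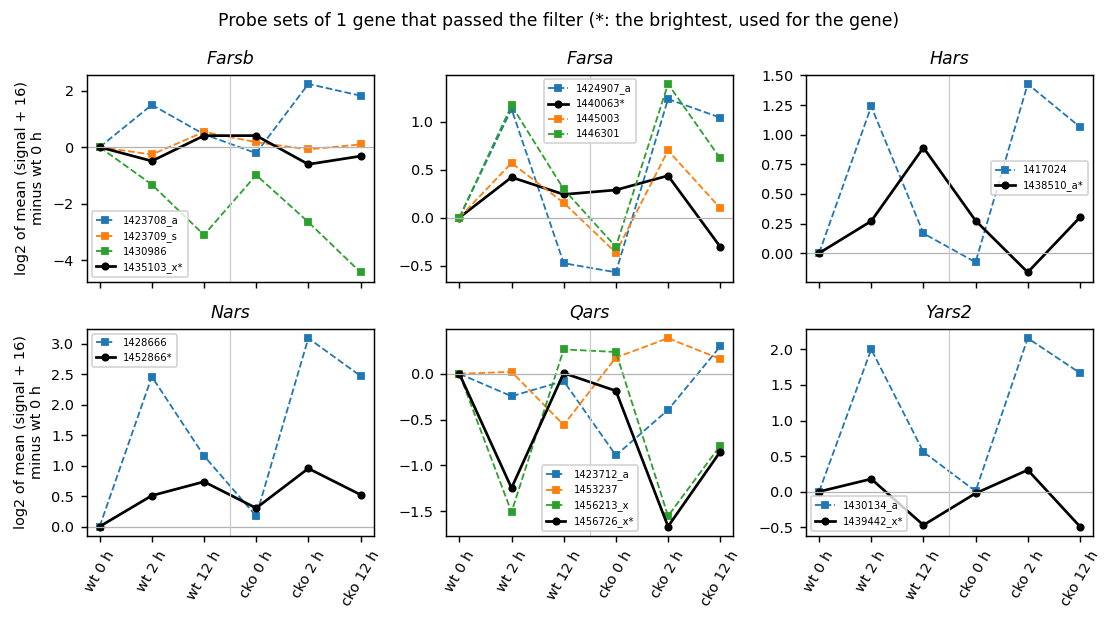
Log2 of the mean signal plus 16 in each group minus its value in the wt 0 h group, for each probe set past the filter of 6 synthetase genes, with the brightest probe set as a solid black line and marked with an asterisk. At 2 h in wild type the Nars probe sets differ by 2.46 and 0.51, and the Farsb probe sets run from -1.32 to 1.5.

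Several mitochondrial enzymes were close to the lower end of the signals tested. Ears2, the glutamate enzyme gene, had signals of 60.3 to 132 over the 12 arrays and Mars2, the methionine enzyme gene, of 3.4 to 54.4, and neither was called in any of the 11 comparisons. Sars2, the serine enzyme gene, ranged over 53.5 to 140 and was called higher at 12 h than at 2 h in wild type (0.82 ± 0.29), a call lost without some single arrays (0.56 to 1.09). Standard errors at 2 h in wild type were 0.46 for Mars2 and 0.45 for Vars2, against 0.06 for Hars and 0.07 for Tars, so that a difference of the size seen for Hars was not detectable for Mars2 with 2 arrays per group.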

How the data were processed

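Total RNA (100 ng per sample) was amplified in repeated rounds, biotin-labelled and hybridised to Affymetrix Mouse Genome 430 2.0 arrays at 10 µg per array, per the labels' protocols. Scanning and summary used GCOS 1.4, per the submitters' processing notes. The deposited values are linear intensities, 1 per probe set, scaled by the authors so that the 2% trimmed mean is 250 on each of the 12 arrays, as the values show. A step that follows this scaling can shift all genes where the signal distribution changes.

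Of 45101 probe sets, 34945 carried 1 gene symbol in the platform annotation and 932 carried several. Probe sets with a mean log2(signal + 16) above the 40th percentile (5.14) were kept, and each gene was read from its brightest one, giving 12190 genes. A limma model (3.58.1, R 4.3.3) of 6 groups on all 12 arrays with an intensity trend had 6 residual and 7.3 prior degrees of freedom, and Benjamini-Hochberg adjustment ran over all genes. The fit was tested on simulated data. Genes given in full were up to 4 cytosolic and 3 mitochondrial members with the largest called change in each direction of a contrast without overlap between groups. Members and lists were chosen with earlier results of these data known. Array numbers limit the precision. Alternatives covered scaling, quantile normalization, pseudocounts of 1 and 64, the filter, averaging the probe sets of each gene, a replicate block, the control-probe division as an additive term, the mean of duplicate arrays and each array left out in turn.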

Additional observations from a re-analysis of the deposited data

Results flagged for a closer look

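The response to anti-IgM differed between genotypes, by the interaction term of the limma fit, for 7 of 19 cytosolic and 1 of 16 mitochondrial synthetase genes at 2 h and for 16 of 19 and 6 of 16 at 12 h. All genes tested gave 20.4% called at 2 h and 43.2% at 12 h. Values below are the response on the arrays labelled cko minus that on the wild-type arrays (log2, ± SE).

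At 2 h both responses cross from the lower to the higher control-probe set, but not to the same extent. The actin ratio was 3.27% to 3.33% at 0 h and 8.41% to 8.51% at 2 h in wild type. In cko it was 1.80% to 1.99% and 10.6% to 10.8%, and the part of this was not tested. The cko response was greater for Kars (0.79 ± 0.12), Tars (0.68 ± 0.10), Gars (0.51 ± 0.09) and Sars (0.40 ± 0.10). It was lower for Hars (-0.71 ± 0.08), Farsb (-0.52 ± 0.09), Aars (-0.49 ± 0.13) and Aars2 (-1.53 ± 0.43). The calls for Aars and Aars2 were lost without some single arrays, with ranges of -0.54 to -0.45 and -1.99 to -1.06. With median scaling, 5 cytosolic genes were greater and 2 lower, against 4 and 3. The 21 further cytosolic probe sets gave 6 greater and 0 lower.

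At 12 h the cko arrays changed control-probe set and the wild-type arrays did not, so that this difference and the division of the arrays cannot be told apart. The cko response was greater for Tars (1.99 ± 0.10), Rars (1.87 ± 0.19), Kars (1.12 ± 0.12), Eprs (1.01 ± 0.09), Gars (0.75 ± 0.09), Wars (0.43 ± 0.13), Hars2 (0.84 ± 0.22) and Fars2 (0.63 ± 0.18). Among cytosolic genes it was lower for Farsb (-1.13 ± 0.09), Hars (-0.86 ± 0.08), Farsa (-0.84 ± 0.14), Vars (-0.78 ± 0.13), Qars (-0.68 ± 0.12), Lars (-0.64 ± 0.09), Aars (-0.62 ± 0.13), Nars (-0.52 ± 0.09), Iars (-0.43 ± 0.12) and Mars1 (-0.35 ± 0.11). Among mitochondrial genes it was lower for Aars2 (-2.50 ± 0.43), Vars2 (-2.27 ± 0.64), Wars2 (-1.10 ± 0.16) and Tars2 (-0.57 ± 0.17). Mars1, Wars, Tars2 and Vars2 were not called without some single arrays, with ranges of -0.44 to -0.26, 0.36 to 0.50, -0.75 to -0.39 and -2.83 to -1.71. With median scaling, 9 cytosolic genes were greater and 3 lower, against 6 and 10, and 3 mitochondrial genes were greater and 3 lower, against 2 and 4. The 21 further cytosolic probe sets gave 12 greater and 2 lower, and 18 of them had a value above that of the brightest probe set. The 11 further mitochondrial ones gave 1 greater and 3 lower.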

How the results depend on the processing

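Of the alternatives run on each synthetase gene and comparison, 5659 values kept their direction and their side of the threshold, 358 were no longer past it, 85 passed it newly and 71 changed sign. The sign changes came from the additive control-probe term (33), averaging of probe sets (27), the mean of duplicate arrays (6) and median scaling (5). Leaving out 1 array at a time reversed none of 1820 values, and 113 calls were lost and 13 gained. Causes were not tested. The mean of duplicate arrays leaves 6 values to fit, and that fit has additive genotype and time terms. Its time values are therefore shared by both genotypes and are not those of 1 genotype. The additive control-probe fit also gives both genotypes 1 value per time. Its genotype value rests on the 0 h and 2 h arrays and does not bear on the 12 h difference.

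With the mean of duplicate arrays, cytosolic calls numbered 9 at 2 h and 5 at 12 h against 0 h in either genotype and 4 at 12 h against 2 h, and mitochondrial calls 6 at 2 h in cko, 1 at 12 h in either genotype and 3 at 12 h against 2 h. The additive control-probe term gave 12 cytosolic calls in wild type at 2 h and 11 between genotypes at 12 h, and 6 mitochondrial calls in cko at 2 h, 7 in wild type at 12 h against 2 h and 3 between genotypes at 12 h. Other mitochondrial counts moved too: in cko at 12 h to 5 with median scaling and 5 with the mean of probe sets, between genotypes at 0 h to 2 with no filter and 1 with the mean of probe sets, at 2 h to 1 with no filter, 0 with the mean of probe sets and 1 with no intensity trend, for the interaction at 12 h to 3 with the mean of probe sets and at 2 h to 0 with no intensity trend, and in wild type at 12 h to 3 with the mean of probe sets. Without 1 array at a time, mitochondrial calls ranged from 2 to 3 between genotypes at 0 h against 4, from 0 to 2 at 2 h against 2, and from 0 to 1 for the interaction at 2 h against 1. At 0 h the count was 2 without the first wt array, the first cko array or the second cko array, and at 2 h it was 1 without the first wt array and 0 without the second wt or the first cko array. The interaction count was 0 without the first wt 0 h, first wt 2 h, second cko 0 h, or either cko 2 h array.

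The sign changes under the additive term were these values, where in cko at 12 h against 0 h Aars2 had 1.19, Farsa 0.18, Farsb 0.27, Hars2 -0.14, Lars 0.33, Tars2 0.056, Vars2 0.46 and Wars2 0.58. In cko at 2 h against 0 h Aars2 had 0.95, Farsb 0.12, Hars 0.43, Lars 0.21, Vars2 0.63, Wars -0.028 and Wars2 0.56. Between genotypes at 12 h Aars2 had 0.82, Fars2 -0.069, Farsa 0.15, Farsb 0.15, Nars 0.37, Vars2 0.20 and Wars2 0.38. These genotype values rest on the 0 h and 2 h arrays and do not bear on the 12 h difference. At 12 h against 2 h in wild type Eprs had 0.21, Gars 0.19, Kars 0.093, Nars -0.40 and Vars2 -0.18. At 2 h against 0 h in wild type Farsb had 0.12, Lars 0.21, Vars2 0.63 and Wars -0.028. Between genotypes at 0 h Hars had -0.079 and Kars 0.056. When probe sets of a gene were averaged, for the interaction at 12 h Aars had 0.18, Fars2 -0.49, Farsa 0.55, Hars 0.061, Hars2 -0.26 and Nars 0.31. In cko at 12 h against 0 h Fars2 had -0.20, Farsa 0.60, Hars2 -0.043 and Yars2 0.60. Between genotypes at 12 h Fars2 had -0.13, Farsa 0.31, Hars 0.16 and Nars 0.55. Between genotypes at 0 h Farsa had -0.24, Farsb -0.15 and Hars2 0.013. In cko at 12 h against 2 h Farsb had -0.42. For the interaction at 2 h Farsb had 0.010. In wild type at 12 h against 0 h Farsb had -0.43 and Yars2 0.026. In wild type at 12 h against 2 h Farsb had -0.29, Hars -0.23, Hars2 0.11 and Nars -0.54. In cko at 2 h against 0 h Hars had 0.53 and Sars 0.12. With the mean of duplicate arrays, in cko at 12 h against 0 h Aars2 had 0.32, Lars 0.030 and Wars2 0.14. In wild type at 12 h against 0 h Farsb had -0.16. In wild type at 2 h against 0 h Hars had -0.083. In wild type at 12 h against 2 h Nars had -0.10. With median scaling, in cko at 12 h against 0 h Lars had 0.13. For the interaction at 12 h Mars1 had 0.078. Between genotypes at 12 h Nars had 0.10. In wild type at 12 h against 2 h Nars had -0.068. In cko at 2 h against 0 h Sars had 0.25.

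The labels do not say that replicate numbers pair the arrays. Deviations of same-numbered arrays correlated by -0.014 to 0.013 over 15 pairs of groups, 0 of them above 0.1. These values show no shared deviation of same-numbered arrays, and cannot settle whether the numbers pair them. With the replicate block the cytosolic counts were 19 in wild type at 2 h and 16 at 12 h, and the block changed the call of 4 of 385 values.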

Other observations

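Cytosolic elongation factors, which deliver charged tRNA to the ribosome or move it along, were examined beside the synthetases. Of 5 tested of 6 listed, 3 rose and 1 fell at 2 h in wild type and 2 rose and 1 fell at 12 h, against 23.5% and 36.2% of all genes at 2 h and 24.8% and 23.1% at 12 h. Eef1b2 and Eef1d, exchange-factor subunits, had values of 0.36 ± 0.06 and 0.34 ± 0.06 at 2 h, Eif5a, which eases peptide-bond formation, 0.33 ± 0.05, and Eef1a1, the tRNA carrier, -0.30 ± 0.05.

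Follicular B cell markers, 3 of 4 measured, summed to 8726 to 10367 on the wt 0 h arrays and 2769 to 2770 on the wt 12 h arrays, and to 14480 to 15066 and 2591 to 2848 on those labelled cko. Plasma cell markers, 4 of 4 measured, summed to 8233 to 8405 at 0 h and 4771 to 5081 at 12 h in wild type and to 8585 to 9016 and 8065 to 8414 in cko. They did not move together. Jchain means went from 5660 to 1749 in wild type and from 4086 to 2638 in cko, and Xbp1 means from 2383 to 2925 and from 4539 to 5453.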
